A study of Mus musculus with 36 samples.

Results

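The genes described here, 37 of the 32285 mouse gene IDs in the deposited count table, carry out the response of a cell to interferon and the display of peptides on class I molecules. They were chosen by name, with earlier results of these data known. All 37 were found in the table and passed the filter on low counts in both lines. They were measured by RNA sequencing in 2 mouse breast cancer lines: AT-3, from a mammary tumour of an MMTV-PyMT mouse, whose oncogene is driven in the mammary epithelium, and E0771, from a mammary adenocarcinoma. Each line was treated for 24 h with DMSO, with 10 µM NS11021, with 10 µM BMS204352, with 40 mM KCl, or with KCl and either compound at the same doses. NS11021 and BMS204352 are openers of potassium channels, and added KCl raises potassium outside the cell, which depolarizes it. With 3 libraries per group there were 12 groups and 36 libraries. The series title concerns expression driven by MRTFA and SRF, cell stiffness, and calcium and potassium in the cytoplasm. The labels name no interferon treatment and no salt or osmotic control for KCl, so added potassium, added chloride and osmotic load cannot be told apart. Nor do they say whether the KCl groups also held DMSO, so a difference in vehicle cannot be told apart from KCl or from a compound added to it. They also do not say whether replicates came from separate cultures, so p-values measure the spread between these libraries, which may be technical.

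Interferons bind receptors at the cell surface, and the signal runs through Janus kinases to factors such as Stat2 and Irf9, which enter the nucleus and switch on many genes with antiviral roles. The same signal raises the machinery of class I presentation: the immunoproteasome cuts proteins into peptides, the Tap1-Tap2 transporter carries them into the endoplasmic reticulum, tapasin (Tapbp) helps load them, and the complex of a heavy chain with beta-2 microglobulin (B2m) takes them to the surface, where T cells read them. Tumour cells keep many of these genes on at a low level without added interferon, and losing them is a known route of escape from T cells.

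Factors of the Stat and Irf families bind short DNA elements near the start sites of such genes. The stretches below show exact matches to the cores of these elements in members that the results turn on. Each is the 150 bases before an annotated start, 5′ to 3′ on the gene's strand, from RefSeq on GRCm38.p6. Capitals mark matches on either strand to GAAANNGAA, the core of the interferon-stimulated response element (ISRE), or to TTCNNNGAA, the core of the gamma-activated site (GAS). Isg15 (chr4:156200819-156200968, minus strand), Ifit3 (chr19:34583379-34583528, plus strand) and Bst2 (chr8:71537473-71537622, minus strand) hold several matches. Irf1 (chr11:53769864-53770013, plus strand) holds a GAS core. Xaf1 (chr11:72301479-72301628, plus strand) and H2-K1 (chr17:34000348-34000497, minus strand) are shown because both fell with KCl, each in 1 line, and hold no exact match. Only the strings given above were searched, so an element that departs from them at any fixed base is not marked. The H2-K1 stretch holds tttcacttc and the Xaf1 stretch holds ttcagtttt, which are close to the ISRE core. The lack of a match therefore does not show that a stretch lacks an interferon element.
Isg15: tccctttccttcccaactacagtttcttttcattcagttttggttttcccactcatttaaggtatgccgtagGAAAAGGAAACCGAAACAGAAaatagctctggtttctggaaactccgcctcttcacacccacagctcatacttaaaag
Ifit3: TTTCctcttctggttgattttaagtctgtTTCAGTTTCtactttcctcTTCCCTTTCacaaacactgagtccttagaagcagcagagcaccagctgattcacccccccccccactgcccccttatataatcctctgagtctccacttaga
Bst2: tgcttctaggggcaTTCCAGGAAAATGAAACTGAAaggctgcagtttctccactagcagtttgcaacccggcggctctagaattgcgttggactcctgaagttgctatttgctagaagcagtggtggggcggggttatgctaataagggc
Irf1: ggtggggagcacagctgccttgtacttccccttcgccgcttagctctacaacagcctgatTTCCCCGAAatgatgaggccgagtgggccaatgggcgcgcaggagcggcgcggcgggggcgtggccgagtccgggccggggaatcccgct
Xaf1: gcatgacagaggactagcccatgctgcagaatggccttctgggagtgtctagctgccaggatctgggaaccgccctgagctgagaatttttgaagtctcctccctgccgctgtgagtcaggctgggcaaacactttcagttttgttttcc
H2-K1: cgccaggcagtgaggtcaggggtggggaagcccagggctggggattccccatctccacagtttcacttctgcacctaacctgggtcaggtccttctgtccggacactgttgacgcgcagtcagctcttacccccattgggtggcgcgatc

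In Isg15 the capitals are 3 overlapping ISRE cores. In Ifit3 the capitals at the 5′ end are the end of a match that begins outside the stretch. In Bst2 the run of capitals joins a GAS core to 2 overlapping ISRE cores. RefSeq windows of 300 bases (250 before to 50 after the start) were found for 31 of the 37 genes, the others being Nlrc5, Dhx58, Usp18, Parp9, Parp14 and Tap2. An ISRE core was present in 16 of the 31 (51.6%), against 8.56% of all 32851 windows in the table, or 9.76% of 27025 genes with any window. A GAS core was present in 7 of the 31 (22.6%), against 8.30% of windows and 9.55% of genes. A match is a description of the sequence and was not measured as a binding site.

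Library totals ran from 38.5 to 52.6 M counts in AT-3 and from 31.2 to 47.9 M in E0771. Levels are given as counts per M of the library total (CPM), and levels of different genes are compared only per kilobase of exon as well (RPKM). The third BMS204352 library stood apart in both lines: on the first principal component of AT-3 (28.6% of variance) it lay at 41.9 beside 6.15 and 9.74 for the other two, and on the third component of E0771 (5.72%) at 17.7 beside 1.53 and -2.14. The third KCl+BMS204352 library of AT-3 lay at 21.7 beside 1.32 and 4.57. Counts are therefore also given without these 3 libraries. The labelled cell type, breast cancer cells, was checked against epithelial markers, with markers of other cell types beside them. AT-3 expressed Epcam at 114 to 174 CPM, Cdh1 at 379 to 504 and Krt18 at 20.1 to 74.6, but Krt8 at no more than 1.56. E0771 expressed Krt8 at 139 to 227 CPM, but Epcam at no more than 0.345, Krt18 at no more than 0.18 and Cdh1 at no more than 1.80. Of the fibroblast markers, Pdgfra stood at 87.5 to 126 CPM in E0771 and 7.08 to 14.8 in AT-3. Col1a1 stood at 28.4 to 77.8 CPM in E0771 and 5.52 to 10.8 in AT-3. Dcn and Lum did not exceed 0.720 and 0.224 CPM in any library. Ptprc, a marker of leukocytes, and Cd3e, a marker of T cells, did not exceed 0.142 and 0.0209 CPM in any library. Among the 6 leukocyte markers Cd68 was the most abundant, and their sum in E0771 lay at 5.25 to 5.32 CPM in DMSO, 14.7 to 16 with NS11021, 11.6 to 12.3 with BMS204352 and 3.38 to 3.97 with KCl. In AT-3 that sum was 4.43 to 5.63 CPM in DMSO, 2.87 to 4.79 with KCl and 8.58 to 22.5 with BMS204352. The 4 epithelial markers, nearly all Krt8 in E0771, summed there to 202 to 207 CPM in DMSO, 157 to 166 with KCl, 147 to 156 with KCl and NS11021 and 139 to 161 with KCl and BMS204352, so that each KCl group lay below DMSO. Krt8 fell with KCl in E0771 (-0.32 on the log2 scale, adjusted p = 3.58e-06 by edgeR). With BMS204352 in AT-3, Epcam (0.29) and Pecam1 (1.02) rose. Of the other markers, Pecam1 of endothelium rose with KCl in E0771, from 0.63 to 2.87 CPM, and Col1a1 of fibroblasts fell there (-1.06 on the log2 scale). The mitochondrial share of counts with KCl and BMS204352 lay above that with KCl: 0.687 to 0.792% in AT-3 against 0.491 to 0.58% with KCl, and 0.789 to 1.03% in E0771 against 0.678 to 0.739%. The part of these marker and mitochondrial changes in the results below was not tested. In bulk RNA, fewer cells that express a gene and less of its RNA per cell cannot be told apart.

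In DMSO the 2 lines set these genes at different levels, in both directions. The interferon-responsive factors, sensors and effectors were mostly lower in E0771, while the peptide transporter, B2m and H2-D1 were higher and H2-K1 and Tapbp were lower. Per kilobase, B2m was the most abundant member in both lines, at 201 ± 12.2 RPKM in AT-3 and 363 ± 7.21 in E0771 (SD, n = 3), followed by H2-D1 at 94.6 ± 3.81 and 176 ± 4.14. In AT-3, 3 of the 37 lay under 1 CPM and 17 at 10 CPM or more, and in E0771 8 lay under 1 CPM and 15 at 10 CPM or more. By edgeR's quasi-likelihood test with Benjamini-Hochberg adjustment over all genes and a threshold of 0.05, 10 of 37 (27.0%) were higher in E0771 and 21 (56.8%) were lower. Of the 15969 genes tested, 34.1% were higher and 40.4% were lower. The median log2 difference (E0771 minus AT-3) was -0.81 over the 37 genes and -0.09 over all genes. These are 2 lines, so the differences describe them and no class of tumour.

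**Figure D1:**
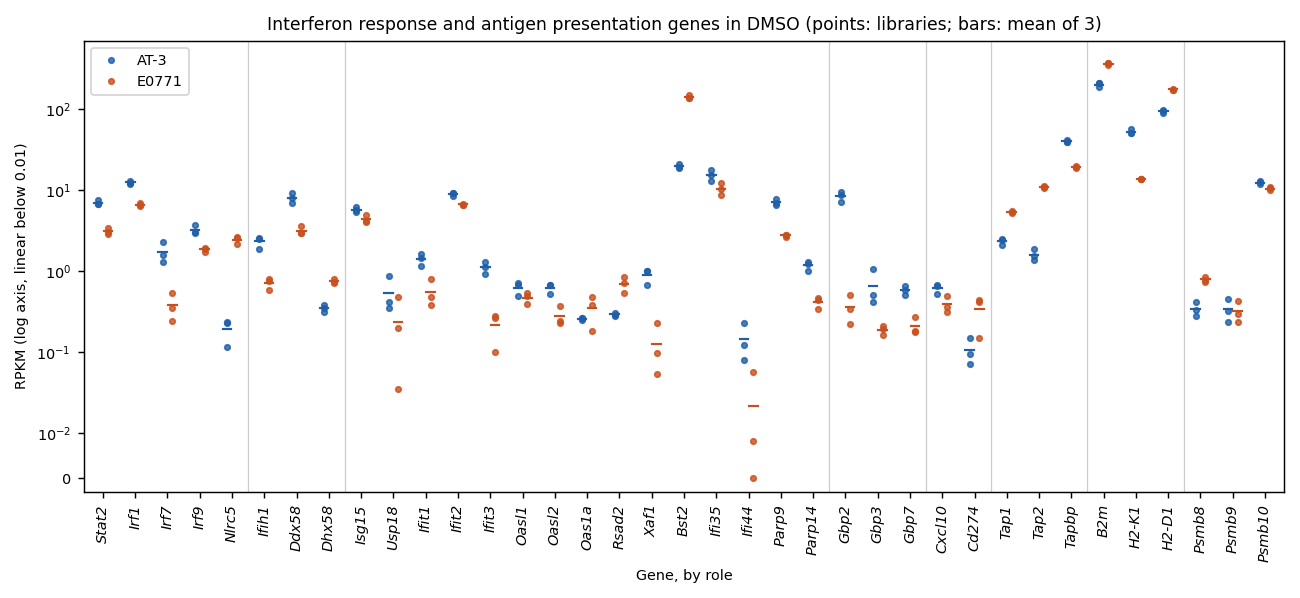
Level of each of the 37 genes in DMSO, in RPKM on a log axis that is linear below 0.01; points are the 3 libraries of each line, short bars their mean, and grey lines part the roles. B2m, H2-D1 and, in E0771, Bst2 stand highest, and Gbp2, Xaf1 and H2-K1 lie higher in AT-3 while Nlrc5, Bst2 and Tap2 lie higher in E0771.

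Among the regulators in DMSO, Nlrc5, the coactivator of class I genes, differed most. Its libraries stood at 0.99, 1.96 and 2.0 CPM in AT-3 and at 21.5, 18.4 and 22.5 in E0771. The groups did not overlap, and E0771 was 12.5-fold higher (adjusted p = 5.41e-15). Stat2, Irf1, Irf9 and Irf7, which carry or amplify interferon signals, were all lower in E0771, by 1.75 to 4.53-fold. Of the RNA sensors, Ifih1 and Ddx58 were lower in E0771 (3.23 and 2.56-fold) and Dhx58 was 2.15-fold higher.

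Of the 15 antiviral effectors and ISG15-system genes, 2 were higher in E0771 and 9 were lower, where 34.1% and 40.4% of all genes were. Bst2, which encodes tetherin and holds budding virus at the membrane, stood at 17.6, 19.2 and 16.9 CPM in AT-3 and at 124, 134 and 124 in E0771, a 7.11-fold difference with no overlap (adjusted p = 4.98e-23). Xaf1, which favours apoptosis, stood at 4.67, 4.77 and 3.12 CPM in AT-3 and at 1.07, 0.254 and 0.461 in E0771, and was 6.9-fold lower in E0771 (adjusted p = 3.66e-07). Ifit3, a tetratricopeptide protein of the antiviral complex around Ifit1, stood at 1.6, 2.26 and 1.94 CPM in AT-3 and at 0.488, 0.458 and 0.173 in E0771, 5.09-fold lower. Ifi44 was near the detection floor in E0771, at 0, 0.0509 and 0.346 CPM against 0.754, 1.41 and 0.494 in AT-3, and was 6.83-fold lower by the fit. None of these 4 genes overlapped between the lines. Lack of overlap was common here, with 33 of the 37 members apart, and the share over all genes was not computed. Rsad2 (viperin) was 2.4-fold higher in E0771, a call that was lost without E0771 DMSO replicate 2 (adjusted p = 0.0501). Ifit1, Ifit2, Oasl2, Ifi35, Parp9 and Parp14 were lower in E0771 by 1.34 to 2.82-fold, and Isg15, Usp18, Oasl1 and Oas1a did not pass the test.

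The guanylate-binding proteins, GTPases that attack vacuoles of intracellular pathogens, were all lower in E0771. Gbp2 stood at 22.2, 18.1 and 23.6 CPM in AT-3 and at 1.27, 0.56 and 0.865 in E0771, 23.6-fold lower (adjusted p = 1.09e-17). Gbp3 and Gbp7 were 3.47 and 2.78-fold lower. Reads of Gbp genes, of H2-K1 and H2-D1, of Oas1a and of Ifit3 can be shared with near-identical relatives, and how the counting split them is not given in the sources used here.

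The 2 immune ligands stood under 2 CPM in both lines. Cd274, which encodes the checkpoint ligand PD-L1, stood at 0.259, 0.547 and 0.342 CPM in AT-3 and at 1.51, 1.6 and 0.548 in E0771. The E0771 libraries were the higher ones, by 3.18-fold with the lowest of them just above the highest of AT-3 (adjusted p = 0.0122), and the call was lost without replicate 1 of AT-3 DMSO or replicate 2 of E0771 DMSO (adjusted p up to 0.054). Cxcl10, a chemokine that draws T cells, stood at 1.18, 1.51 and 1.48 CPM in AT-3 and 1.12, 0.712 and 0.807 in E0771, with a log2 difference of -0.66 ± 0.45 that did not pass (adjusted p = 0.188).

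Peptide transport and the class I chains split between the lines. Tap2 stood at 5.8, 7.14 and 5.25 CPM in AT-3 and at 39.9, 42.9 and 40.8 in E0771, 6.81-fold higher in E0771 (adjusted p = 8.82e-22), and its partner Tap1 was 2.28-fold higher. Tapbp was 2.07-fold lower. B2m stood at 179.7, 161 and 179 CPM in AT-3 and 316, 316 and 305 in E0771, a 1.8-fold difference, and H2-D1 at 254, 243 and 234 and 443, 464 and 451, a 1.86-fold difference. The other classical heavy chain went the opposite way: H2-K1 stood at 149, 167 and 148 CPM in AT-3 and at 40.4, 40.1 and 40.5 in E0771, 3.84-fold lower in E0771. None of these groups overlapped. Of the immunoproteasome subunits, Psmb8 was 2.32-fold higher in E0771 and Psmb9 did not pass. Psmb10 was 1.19-fold lower, a call lost without replicate 1 of AT-3 DMSO or replicate 3 of E0771 DMSO (adjusted p up to 0.0932).

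Under treatment, the 2 lines parted again. KCl lowered a few of the genes in AT-3 and raised a wider set in E0771, and the compounds were followed by calls in both directions in E0771 and few in AT-3. In AT-3, KCl was followed by 0 higher and 4 lower of 37 (10.8%), where 3.08% of the 14772 tested genes were higher and 1.75% were lower. The median log2 change was -0.38 over the 37 genes and -0.00404 over all genes, and 32 of the 37 estimates were negative. Without the 3 libraries that stood apart, which enter this comparison through the shared estimate of spread, the count was 9. With the replicate number as a block, which the main fit did not hold, it was 8. In E0771, KCl was followed by 12 higher (32.4%) and 2 lower (5.41%), where 17.8% of the 13357 tested genes were higher and 18.6% were lower, and the median was 0.26 against -0.01 for all genes. The share of members that rose was above that of all genes and the share that fell was below it. The genes were chosen with earlier results of these data known, so such shares describe the set and do not test it. Without the libraries that stood apart the E0771 count was 15.

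NS11021 in AT-3 gave 0 calls in either direction by edgeR, with 1 gene at an unadjusted p under 0.05 and 0 by DESeq2, and 0.0677% of all genes were higher and 0.00677% lower. NS11021 on top of KCl in AT-3 also gave 0, with 2 genes at an unadjusted p under 0.05 and 0 by DESeq2, where 0.0203% of all genes were higher and 0.0% lower. BMS204352 in AT-3 gave 0 higher and 2 lower (3.28% and 2.0% of all genes), and DESeq2 called 8. With the replicate number as a block, 6 were called. BMS204352 on top of KCl gave 0 higher and 1 lower (0.731% and 0.508%), and 0 genes passed for the interaction of KCl with BMS204352 (0.0% and 0.0% of all genes), with 3 at an unadjusted p under 0.05 and 0 by DESeq2.

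In E0771, NS11021 gave 5 higher and 4 lower of 37, where 12.8% and 13.5% of all genes were higher and lower, and BMS204352 gave 5 and 4, where 11.3% and 11.3% were. With KCl in both arms, NS11021 gave 2 higher and 2 lower (9.59% and 7.66% of all genes) and BMS204352 gave 4 higher and 2 lower (9.85% and 10.1%). The shares called with the compounds in E0771 thus lay near or below the background, and the members are described as single genes. Without the libraries that stood apart these 4 comparisons gave 12, 8, 6 and 9 calls in the same order. The interaction of KCl with BMS204352 in E0771 was called for 1 gene higher and 0 lower (0.569% and 1.06% of all genes). Comparisons within a line share their DMSO or KCl libraries and are not independent. Over the 5 treatment comparisons of each line, 6 genes were called at least once in AT-3 and 21 in E0771, 3 of them in both, and 13 in neither line. The share of all genes called at least once was not computed. In each of the 5 comparisons a larger share of all genes was also called in E0771. The spread between libraries was wider in AT-3, with a coefficient of variation of 0.116 against 0.0707. Whether the difference in these counts is particular to the 37 genes was not tested.

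**Figure D2:**
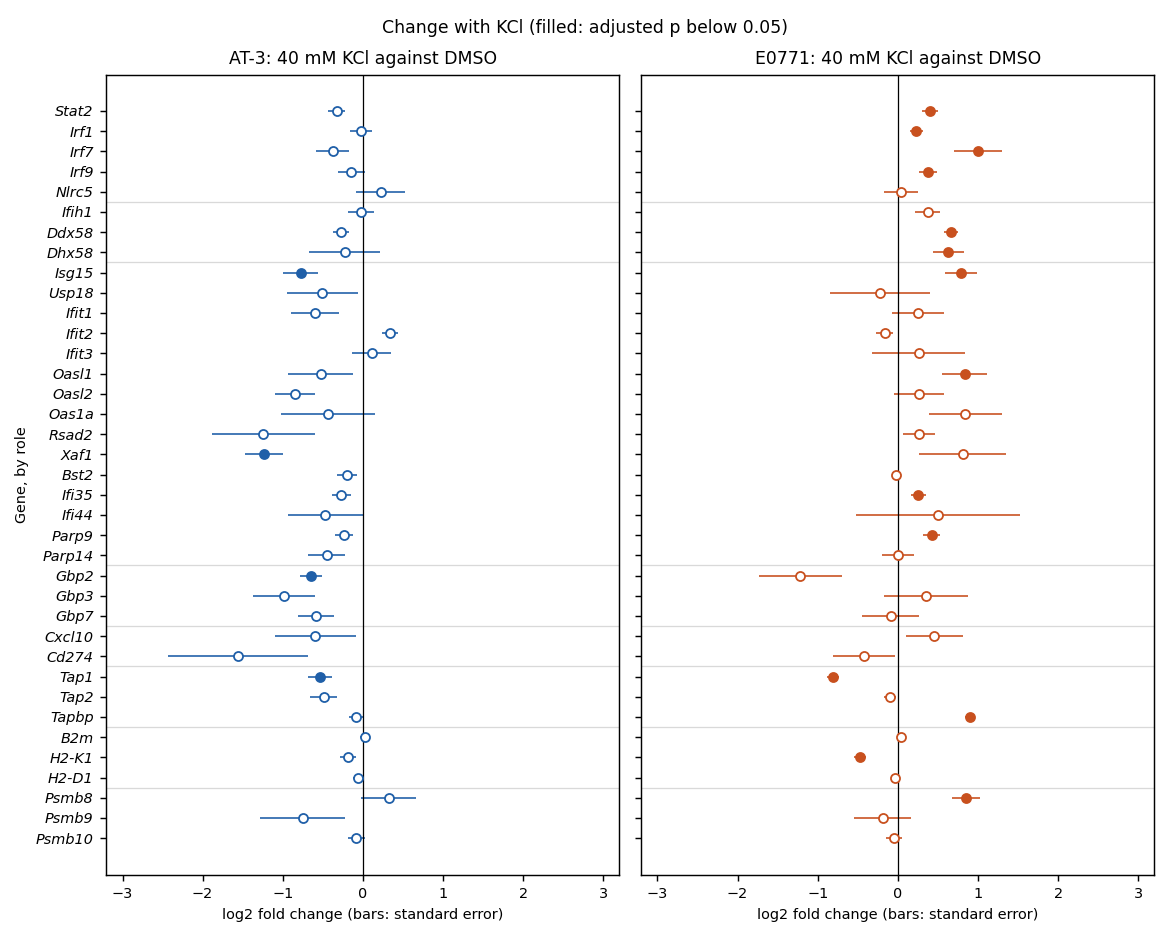
Log2 fold change of each gene with 40 mM KCl against DMSO in AT-3 (left) and E0771 (right), with bars for the standard error and filled points for an adjusted p below 0.05. In AT-3 the 4 filled points (Isg15, Xaf1, Gbp2, Tap1) lie below 0, and in E0771 12 lie above 0 while Tap1 and H2-K1 lie below.

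Of the 5 regulators, 4 were called higher with KCl in E0771, where 17.8% of all genes were higher. In AT-3 0 of 5 were, where 3.08% of all genes were higher. Of the E0771 calls only that of Stat2 held in every alternative run. By edgeR on all 18 libraries of AT-3 no regulator passed in any of the 5 treatment comparisons. Irf7, which amplifies type I interferon production, stood at 1.32, 2.03 and 0.923 CPM in E0771 with DMSO and at 3.07, 1.92 and 3.49 with KCl. The 2 groups overlapped by 1 library each, and the log2 change was 1.0 ± 0.30 (adjusted p = 0.00792), lost without replicate 3 of E0771 DMSO or replicate 3 of E0771 KCl (adjusted p up to 0.0598). Stat2, the partner of Irf9 in the type I complex, rose from 18.4 ± 1.65 to 24.1 ± 1.16 CPM, by 0.40 ± 0.10 on the log2 scale (adjusted p = 0.0014). Irf9 rose by 0.38 ± 0.11, a call lost without replicate 1 of E0771 KCl (0.0504 as adjusted p).

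Irf1, which drives class I and other interferon-gamma genes, moved both ways in E0771. It stood at 25, 26.2 and 27.4 CPM with DMSO, 30.6, 31.3 and 29.7 with KCl, 17.6, 18.1 and 22.6 with NS11021 and 18, 19.5 and 16.6 with BMS204352. The KCl libraries were the highest and those of the compounds the lowest, with no overlap with DMSO. It rose by 0.23 ± 0.09 with KCl (adjusted p = 0.0325), a call lost without replicate 1 or 2 of E0771 DMSO or replicate 1 or 2 of E0771 KCl (adjusted p up to 0.123). It fell with NS11021, with a log2 change of -0.43 ± 0.09 (adjusted p = 0.000427), and with BMS204352, with -0.53 ± 0.09 (adjusted p = 4.89e-05). With KCl in both arms it stood at 24.2, 25.3 and 23.2 CPM with NS11021, a log2 change of -0.33 ± 0.09 (adjusted p = 0.00728), and at 27.9, 25.8 and 26.1 with BMS204352, where it did not pass (adjusted p = 0.083). In AT-3 with BMS204352 it stood at 41.1, 42.3 and 27.4 CPM against 51.8, 49.3 and 47.4 in DMSO, and the change of -0.41 ± 0.13 did not pass (adjusted p = 0.0792). The lowest of these AT-3 values is the third library, which stood apart. Nlrc5 did not pass in any treatment comparison in either line.

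The RNA sensors bind viral RNA, and RIG-I and MDA5 then start an interferon response. Ddx58, which encodes RIG-I, stood at 20.7, 25.4 and 20.7 CPM in E0771 with DMSO and at 38.9, 32 and 33.9 with KCl, every KCl library above every DMSO library, a log2 change of 0.66 ± 0.09 (adjusted p = 7.13e-07). In AT-3 the KCl libraries stood at 45.4, 47.6 and 47.5 CPM, all below the DMSO libraries at 49.2, 65.4 and 56.4, and the change of -0.28 ± 0.10 did not pass. Dhx58, which encodes the regulator LGP2, stood at 2.39, 2.59 and 2.34 CPM with DMSO in E0771. It rose under each single agent there: to 4.23, 2.9 and 4.08 with KCl (0.63 ± 0.20), to 4.6, 2.98 and 3.9 with NS11021 (0.65 ± 0.19) and to 4.15, 4.1 and 3.24 with BMS204352 (0.65 ± 0.20). BMS204352 on top of KCl took it to 5.2, 6.6 and 5.32 CPM (0.59 ± 0.19 against KCl). Each of these calls was lost without 1 or more libraries: replicate 1 of E0771 KCl for KCl (0.0635 as adjusted p), replicate 1 of E0771 NS11021 (0.086), replicate 1 of E0771 BMS204352 (0.0504), and replicate 2 of E0771 KCl or replicate 2 of E0771 KCl+BMS204352 for the combination (up to 0.14). Ifih1, which encodes MDA5, was not called under any treatment in either line.

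Of the antiviral effectors, 4 of 15 rose with KCl in E0771, where 17.8% of all genes rose, and 2 of 15 fell in AT-3, where 1.75% of all genes fell. The E0771 count is near the background. Isg15, the ubiquitin-like modifier, was called in both lines and in opposite directions. In AT-3 it stood at 4.62, 4.24 and 4.07 CPM with DMSO and at 2.23, 3.09 and 2.19 with KCl, and it fell, with a log2 change of -0.78 ± 0.22 (adjusted p = 0.0461). In E0771 it stood at 3.02, 3.76 and 3.11 with DMSO and at 5.08, 5.98 and 5.9 with KCl, and it rose by 0.79 ± 0.20 (adjusted p = 0.00233). Groups did not overlap in either line. The AT-3 call was lost without any one of the 3 DMSO libraries or without KCl replicate 1 or 3 (adjusted p up to 0.174), while that of E0771 held in every alternative run. The difference between the lines in the effect of KCl was 1.55 ± 0.31 (adjusted p = 0.000998).

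Xaf1 showed the largest called fall in AT-3: 4.67, 4.77 and 3.12 CPM with DMSO and 1.98, 1.59 and 1.71 with KCl, with no overlap and a log2 change of -1.24 ± 0.24 (adjusted p = 0.00357), which held in every alternative run. In E0771 it stood at 1.07, 0.254 and 0.461 with DMSO and 0.714, 0.898 and 1.51 with KCl and did not pass. Oasl1, a sensor-like relative of the oligoadenylate synthetases, rose in E0771 from 1.02, 1.27 and 1.38 to 1.53, 2.81 and 2.17 CPM with no overlap (0.83 ± 0.28, adjusted p = 0.0194), a call lost without replicate 1 of E0771 DMSO or replicate 2 of E0771 KCl (adjusted p up to 0.144). Ifi35 rose there by 0.26 ± 0.10 with overlapping groups, a call lost without replicate 2 or 3 of E0771 DMSO or replicate 1 or 3 of E0771 KCl (adjusted p up to 0.276).

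Parp9, an ADP-ribosyltransferase that acts with Dtx3l, rose with KCl in E0771. It fell there with each compound without KCl and with NS11021 on top of KCl. With BMS204352 on top of KCl it was not called, at a mean of 16.2 CPM against 17.8 with KCl. It stood at 13.8, 12.7 and 13.8 CPM with DMSO, 16.9, 18 and 18.6 with KCl and 12.9, 11.7 and 11.8 with KCl and NS11021. KCl raised it by 0.42 ± 0.10 (adjusted p = 0.00152), and NS11021 on top of KCl brought it down by a log2 change of -0.55 ± 0.10 (adjusted p = 0.000383), with no overlap in either step. Without KCl it fell with NS11021, to 11.6, 9.74 and 11.7 CPM (-0.29 ± 0.10), and with BMS204352, to 11.2, 9.6 and 10.6 (-0.35 ± 0.11). The NS11021 call without KCl was lost without replicate 1 or 3 of E0771 DMSO or replicate 1, 2 or 3 of E0771 NS11021, or without the filter on low counts (adjusted p up to 0.214 over the alternatives), and that of BMS204352 without replicate 1 or 3 of E0771 DMSO or replicate 2 of E0771 BMS204352 (up to 0.0726). Parp9 shares 9.40% of its exon length with Dtx3l, which had 15.0 CPM with DMSO and 19.4 with KCl in E0771, and the share of its counts from overlapping reads was not tested.

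Ifit2, which binds viral and cellular RNA, fell with BMS204352 in AT-3. It stood at 33.2, 36.1 and 36.3 CPM with DMSO and at 24.8, 27.2 and 19.6 with BMS204352, a log2 change of -0.55 ± 0.10 (adjusted p = 0.00421). With KCl in both arms it stood at 41, 48.5 and 43.7 without and at 35.4, 33.9 and 28.5 with the compound, a change of -0.46 ± 0.10 (adjusted p = 0.0286). Neither pair of groups overlapped. The first call was lost when only the groups compared were fitted (adjusted p = 0.109), and the second without any one of the 3 KCl libraries or without KCl+BMS204352 replicate 2 or 3 (up to 0.208). In E0771, Rsad2 rose with BMS204352 from 2.34, 3.71 and 3.06 to 3.71, 4.66 and 5.35 CPM, with groups meeting at 3.71 CPM and a change of 0.60 ± 0.20 (adjusted p = 0.0283). That call was lost without replicate 1 or 3 of E0771 DMSO or replicate 2 or 3 of E0771 BMS204352, and when only the groups compared were fitted (adjusted p up to 0.173 over the alternatives). The other effectors, Usp18, Ifit1, Ifit3, Oasl2, Oas1a, Bst2, Ifi44 and Parp14, were not called under any treatment in either line. Bst2 in E0771 ranged from 118 to 144 CPM over all 18 libraries.

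Guanylate-binding genes fell where they were called. Gbp2 in AT-3 stood at 22.2, 18.1 and 23.6 CPM with DMSO and at 14.4, 11.5 and 14.6 with KCl, every KCl library below every DMSO library, with a log2 change of -0.65 ± 0.14 (adjusted p = 0.00711) that held in every alternative run. In E0771, Gbp3 stood at 0.634, 0.534 and 0.692 CPM with DMSO and at 0.248, 0.221 and 0.125 with NS11021, a change of -1.65 ± 0.59 (adjusted p = 0.0359) on levels under 1 CPM. It was lost without replicate 1 or 3 of E0771 DMSO or replicate 1, 2 or 3 of E0771 NS11021 (adjusted p up to 0.134). Gbp7 was not called under any treatment.

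By edgeR on all 18 libraries of a line, neither ligand passed under any treatment. Cd274 in E0771 stood at 1.16, 0.868 and 0.708 CPM with KCl, 1.6, 2.1 and 1.36 with NS11021 and 2.07, 1.56 and 2.23 with BMS204352, beside the DMSO values above, and the groups overlapped in each case. The log2 changes were -0.42 ± 0.39, 0.45 ± 0.37 and 0.68 ± 0.37. In AT-3 it stood at 0, 0.0234 and 0.35 CPM with KCl, where 1 library held no count, and the change was -1.56 ± 0.88 (adjusted p = 0.385). It ranged from -4.70 to -1.0 over the alternatives and passed without replicate 3 of KCl (adjusted p = 0.0305), which leaves the libraries at 0 and 0.0234 CPM. With BMS204352 it stood at 0.782, 0.697 and 0.768, all above DMSO, and the change was 0.98 ± 0.79 (adjusted p = 0.513). With NS11021 it stood at 0.343, 0.45 and 0.403 CPM. On top of KCl, NS11021 gave 0.0474, 0.416 and 0.266 CPM in AT-3 and 1.02, 0.768 and 1.69 in E0771, and BMS204352 gave 0.212, 0.382 and 0.699 and 0.691, 0.818 and 1.63. Cxcl10 lay between 0.212 and 2.42 CPM over the 36 libraries.

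**Figure D3:**
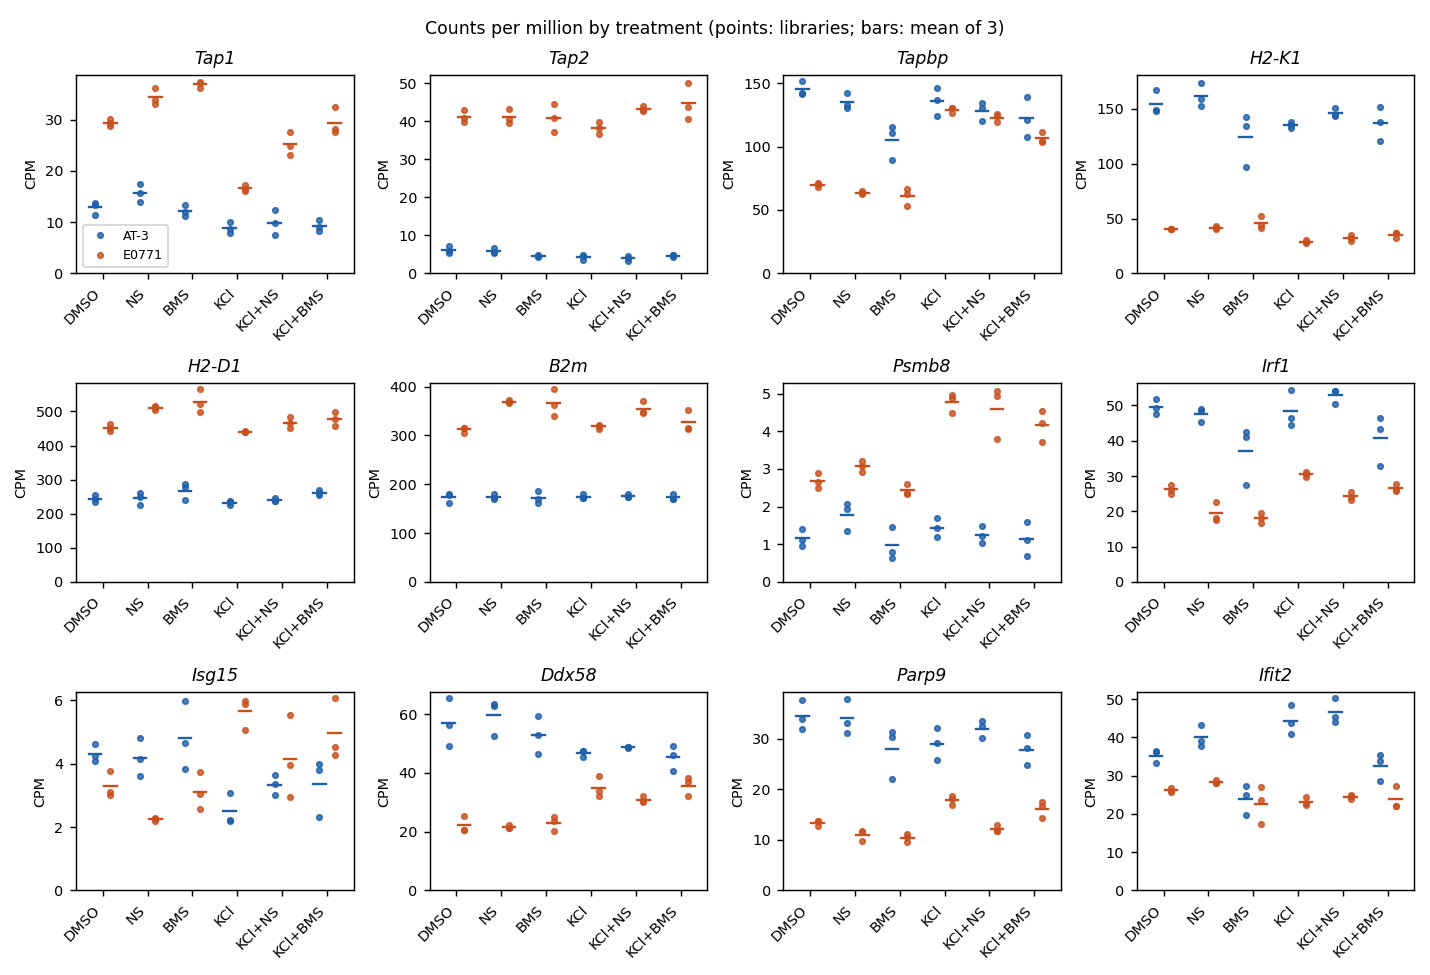
CPM in each library for 12 of the genes across the 6 treatments (NS, NS11021; BMS, BMS204352), AT-3 in blue and E0771 in orange, with bars for means of 3. In E0771 Tap1 falls from 29.4 to 16.7 CPM with KCl and stands at 29.4 with KCl and BMS204352, while Tapbp rises from 70.0 to 129.

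The peptide loading genes gave the smallest adjusted p-values for KCl in E0771, and within the same loading complex they went in opposite directions. Tap1 fell with KCl in both lines. In E0771 it stood at 29.4, 28.7 and 30.2 CPM with DMSO and at 16.2, 17.3 and 16.5 with KCl, with a log2 change of -0.81 ± 0.08 (adjusted p = 1.17e-09). In AT-3 it stood at 11.5, 13.4 and 13.8 and 7.89, 10.03 and 8.63, with a change of -0.53 ± 0.15 (adjusted p = 0.0447). No groups overlapped. The AT-3 call was lost without any one of the 3 DMSO libraries or without KCl replicate 1 or 3 (adjusted p up to 0.189), that of E0771 under no alternative, and the difference between the lines was not called (-0.28 ± 0.17, adjusted p = 0.347).

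Both compounds raised Tap1 in E0771, with and without KCl. It stood at 33.1, 33.8 and 36.1 CPM with NS11021 (0.22 ± 0.08 on the log2 scale, adjusted p = 0.0276) and at 36.1, 37.3 and 37.2 with BMS204352 (0.33 ± 0.08, adjusted p = 0.00172). With KCl, NS11021 took it to 24.9, 23.1 and 27.7 (0.60 ± 0.08, adjusted p = 3.28e-06) and BMS204352 to 28.1, 27.7 and 32.5 (0.81 ± 0.08, adjusted p = 1.1e-08). The mean with KCl was 56.6% of DMSO, 85.7% when NS11021 was added and 100.04% when BMS204352 was added. The rise of Tap1 with BMS204352 was larger in the presence of KCl, where the compound also came with a higher mitochondrial share, and the interaction was 0.48 ± 0.11 (adjusted p = 0.0177), lost without replicate 1 of E0771 KCl or replicate 3 of E0771 KCl+BMS204352 (adjusted p up to 0.0592). The call for NS11021 alone was lost without replicate 1 or 2 of E0771 DMSO or replicate 2 or 3 of E0771 NS11021 (up to 0.105). The compounds were not tested against each other. In AT-3 no compound comparison was called for Tap1.

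Tap2 was called once. In E0771 it stood at 36.7, 39.8 and 38.3 CPM with KCl and at 43.9, 40.6 and 49.96 with KCl and BMS204352, and of its treatment comparisons this was the 1 that passed (0.22 ± 0.07, adjusted p = 0.0271), a call lost without replicate 1 or 3 of E0771 KCl or replicate 3 of E0771 KCl+BMS204352 (adjusted p up to 0.254). Tapbp rose with KCl in E0771, from 68.3, 71.3 and 70.4 CPM to 131, 130.4 and 127, far outside the spread of either group, with a log2 change of 0.89 ± 0.06 (adjusted p = 1.15e-13). In AT-3 it stood at 152, 142 and 142 and 124, 137 and 147, which overlapped, and the difference between the lines in the effect of KCl was 0.97 ± 0.11 (adjusted p = 1.2e-07). BMS204352 lowered it in both lines: in AT-3 to 111, 115 and 89.7 CPM (-0.45 ± 0.09), in E0771 to 62.4, 66.9 and 53.1 (-0.20 ± 0.06), and with KCl in E0771 to 104, 103 and 111 (-0.29 ± 0.06 against KCl, adjusted p = 0.000329). The AT-3 call was lost when only the groups compared were fitted (adjusted p = 0.105) and the E0771 call without KCl was lost without replicate 3 of E0771 BMS204352, the library that stood apart, or when only the groups compared were fitted (up to 0.156). Tapbp shares 29.0% of its exon length with the antisense model Gm19412, which held 0 counts in every library.

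Class I heavy chains parted as well. H2-K1 fell with KCl in E0771, from 40.4, 40.1 and 40.5 CPM to 28.4, 27.7 and 30.4, with no overlap and a log2 change of -0.47 ± 0.08 (adjusted p = 1.87e-05). BMS204352 on top of KCl brought it to 36.4, 32 and 36.8 (0.27 ± 0.08, adjusted p = 0.0151), a call lost without replicate 1 or 2 of E0771 KCl or replicate 1 or 3 of E0771 KCl+BMS204352 (adjusted p up to 0.0776). H2-D1 stood at 438, 438 and 443 CPM with KCl, and its change of -0.03 ± 0.04 did not pass. It rose instead with the compounds, to 503, 514 and 515 with NS11021 (0.17 ± 0.04, adjusted p = 0.00233) and to 498, 521 and 566 with BMS204352 (0.23 ± 0.04, adjusted p = 0.000179). B2m, the light chain that both heavy chains need, stood at 320.1, 314 and 322 CPM with KCl (0.04 ± 0.05, not called), 366, 373 and 369 with NS11021 (0.24 ± 0.05, adjusted p = 0.000276) and 362, 339.9 and 396 with BMS204352 (0.23 ± 0.05, adjusted p = 0.000524). NS11021 with KCl took it to 348, 345 and 369.8 (0.16 ± 0.05), a call lost without replicate 1 or 2 of E0771 KCl or replicate 3 of E0771 KCl+NS11021 (adjusted p up to 0.139). The remaining E0771 values were not called by edgeR on all 18 libraries: H2-K1 stood at 41.2, 40.1 and 43 CPM with NS11021, 41.1, 44.3 and 51.9 with BMS204352 and 32.3, 35.2 and 29.1 with KCl and NS11021, H2-D1 at 467, 451 and 484 with KCl and NS11021 and 458, 476 and 499 with KCl and BMS204352, and B2m at 316, 314 and 352 with the latter. Under 1 or more alternatives H2-K1 with BMS204352 passed (adjusted p down to 0.0235), and so did H2-D1 with either compound on top of KCl (down to 0.0307 with NS11021 and 0.0177 with BMS204352).

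In AT-3 no class I chain passed in any of the 5 treatment comparisons by edgeR on all 18 libraries. H2-K1 stood at 135, 133 and 138 CPM with KCl, all below DMSO, with a change of -0.18 ± 0.10 (adjusted p = 0.376), and at 135, 142 and 96.6 with BMS204352 (-0.30 ± 0.10, adjusted p = 0.0897), where the lowest was the library that stood apart. Under alternatives H2-K1 did pass, with KCl without the 3 libraries that stood apart (adjusted p = 0.0349) and with BMS204352 by DESeq2, with the replicate block, and without replicate 1 or 2 of BMS204352 (adjusted p down to 0.0218). H2-D1 passed with BMS204352 without replicate 1 of it (adjusted p = 0.03). H2-D1 stood at 225, 233 and 237 and 240.3, 277 and 287 CPM and B2m at 171, 173 and 180.0 and 162, 169.6 and 187 under the same 2 treatments. On top of KCl, H2-K1 stood at 143, 151 and 144 CPM with NS11021 and 138, 152 and 120.4 with BMS204352, H2-D1 at 236, 245 and 236 and 255, 260.0 and 268, and B2m at 175, 181 and 175 and 170.2, 179 and 170.4. With NS11021 alone, H2-K1 stood at 159, 174 and 153, H2-D1 at 226, 260.0 and 249 and B2m at 172, 179.6 and 169.9 CPM. Under the single agents every group of H2-D1 and B2m, and H2-K1 with NS11021, overlapped DMSO.

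The immunoproteasome subunits did not move together. Psmb8 rose with KCl in E0771, from 2.49, 2.9 and 2.65 to 4.5, 4.97 and 4.88 CPM with no overlap (0.85 ± 0.17, adjusted p = 0.000252). Psmb9, which shares a head-to-head promoter region with Tap1, rose with NS11021 in E0771. It went from 1.56, 1.07 and 0.865 to 1.76, 3.2 and 2.42 CPM (1.07 ± 0.34, adjusted p = 0.0188). That call was lost without replicate 2 or 3 of E0771 DMSO or replicate 2 of E0771 NS11021 (adjusted p up to 0.13). Psmb9 shares 5.79% of its exon length with Tap1, which had 29.4 CPM with DMSO and 34.3 with NS11021 in E0771. The share of Psmb9 counts from overlapping reads was not tested, here or for the line difference below. Psmb10 fell with both compounds: from 17.9, 18.5 and 17 CPM to 14.9, 13.6 and 13.2 with NS11021 (-0.36 ± 0.10, adjusted p = 0.00806) and to 13.5, 13.6 and 12.5 with BMS204352 (-0.43 ± 0.10, adjusted p = 0.00246). With KCl and BMS204352 it stood at 13.3, 14.3 and 13.1 against 15.6, 16 and 19.6 with KCl (-0.35 ± 0.10). The NS11021 call was lost without replicate 3 of E0771 NS11021 (0.052) and that with KCl without replicate 3 of E0771 KCl or replicate 3 of E0771 KCl+BMS204352 (adjusted p up to 0.145). No immunoproteasome gene was called under any treatment in AT-3.

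**Figure D4:**
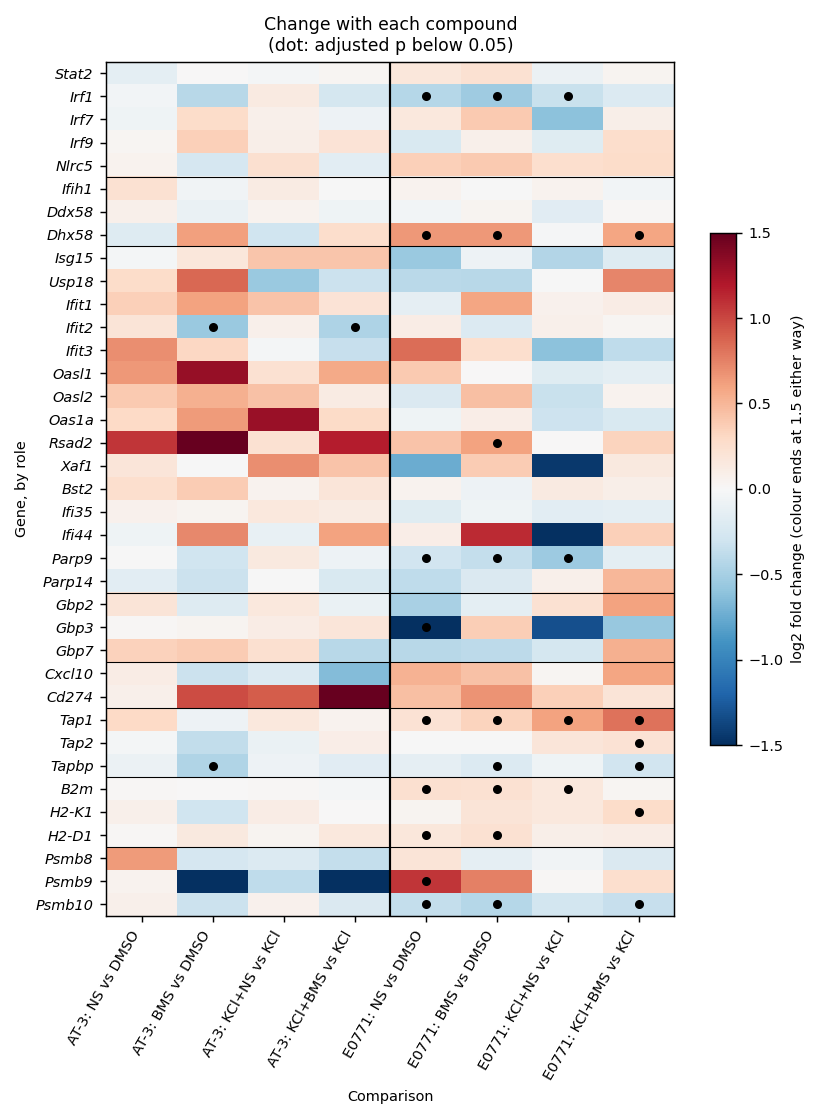
Log2 fold change of each gene (rows, by role) with NS11021 (NS) or BMS204352 (BMS), without and with KCl in both arms, in AT-3 (left 4 columns) and E0771 (right 4); red is higher, blue lower, and dots mark an adjusted p below 0.05. Tap1 is dotted in all 4 columns of E0771, while AT-3 has 3 dots in all, on Ifit2 and Tapbp.

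Whether the lines responded differently was tested directly in the fit of all 36 libraries. For KCl, 8 of 37 had a more positive effect in E0771 and 1 a more negative one, where 4.11% and 5.02% of all genes did, and the median difference was 0.52 over the 37 genes and -0.01 over all genes. Beside Isg15 and Tapbp, the 8 were Xaf1 (2.04 ± 0.58), Irf7 (1.37 ± 0.37), which in AT-3 stood at 4.9, 8.62 and 5.97 CPM with DMSO and 4.95, 5.31 and 4.66 with KCl, Ddx58 (0.93 ± 0.14), Stat2 (0.72 ± 0.15), Parp9 (0.65 ± 0.15) and Ifi35 (0.52 ± 0.16). Ifit2 had the more negative effect in E0771 (-0.51 ± 0.16, adjusted p = 0.0316): with KCl it stood at 41, 48.5 and 43.7 CPM in AT-3, all above DMSO, and at 22.2, 24.5 and 22.9 in E0771 against 26.7, 25.8 and 26.1 with DMSO. Tapbp, Isg15, Ddx58, Stat2 and Parp9 kept the call in every alternative. The calls were lost for Xaf1 without replicate 2 or 3 of E0771 DMSO or replicate 3 of E0771 KCl (adjusted p up to 0.0969), for Irf7 without replicate 2 of AT-3 DMSO or replicate 3 of E0771 DMSO or replicate 3 of E0771 KCl (up to 0.0675), for Ifi35 without replicate 1 or 2 of AT-3 DMSO or replicate 3 of AT-3 KCl or replicate 2 or 3 of E0771 DMSO or replicate 1 or 3 of E0771 KCl (up to 0.102), and for Ifit2 without any one of 10 of the 12 libraries compared (up to 0.106), all but replicate 1 of KCl in AT-3 and replicate 2 of it in E0771. Without the 3 libraries that stood apart the count was 10.

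For NS11021 the lines differed in 0 of 37 by edgeR (1.49% of all genes had a more positive and 2.5% a more negative effect in E0771), with 5 at an unadjusted p under 0.05 and 1 by DESeq2. For BMS204352, 2 had a more positive and 1 a more negative effect in E0771 (1.89% and 3.12% of all genes). H2-K1 differed by 0.49 ± 0.13 (adjusted p = 0.0281), Psmb9 by 2.32 ± 0.65 (adjusted p = 0.0277) with 0.565, 0.261 and 0.415 CPM in AT-3 and 2.24, 1.51 and 2.18 in E0771, and Bst2 by -0.46 ± 0.13 (adjusted p = 0.0334) with 27, 19.8 and 22.4 CPM in AT-3 and 118, 122 and 121 in E0771. All 3 calls were lost when only the groups compared were fitted, and H2-K1 and Bst2 also without the 3 libraries that stood apart. Leaving out 1 library ended each of them too: for H2-K1 without replicate 2 of AT-3 DMSO or replicate 3 of AT-3 BMS204352 or replicate 1, 2 or 3 of E0771 DMSO or replicate 3 of E0771 BMS204352, for Psmb9 without replicate 3 of AT-3 DMSO or replicate 2 of AT-3 BMS204352 or replicate 2 or 3 of E0771 DMSO or replicate 1 or 3 of E0771 BMS204352, and for Bst2 without any of the 12 libraries but replicate 2 of DMSO and of BMS204352 in AT-3. Over all alternatives the adjusted p reached 0.178 for H2-K1, 0.0881 for Psmb9 and 0.138 for Bst2. Without the 3 libraries that stood apart, 1 gene was called for BMS204352 and 2 for NS11021.

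Genes around the 37 were taken from lists of the same pathway, 102 in all, of which 73 passed the filter on low counts in E0771 and 84 in AT-3. These lists too were chosen with earlier results known, so their counts are a description. None of the 10 interferon genes listed was tested in either line: Ifnb1 had 6 counts over the 18 E0771 libraries and 0 in AT-3, and Ifng had 0 in both, which allows up to 0.00374 CPM in AT-3 and 0.00434 in E0771, for counting error only. With KCl in E0771, 26 of the 73 rose and 2 fell, beside 17.8% and 18.6% of all genes, and the counts of single lists below are to be read against the same shares. Further interferon-stimulated genes gave 15 of 26 higher and 0 lower, with a median log2 change of 0.51. Ifitm3, a membrane protein that blocks viral entry, stood at 111, 123 and 113 CPM with DMSO and 203, 210.3 and 211 with KCl (0.86 ± 0.05, adjusted p = 7.28e-15). Lgals3bp, a secreted glycoprotein, went from 38.7 ± 1.49 to 77.9 ± 3.06 CPM (1.02 ± 0.07) and Ifitm2 changed by 0.73 ± 0.06. Of the sensing adaptors 4 of 10 rose, among them Tmem173, which encodes STING, from 57.9 ± 3.15 to 83.4 ± 2.93 CPM (0.53 ± 0.07), Eif2ak2, which encodes PKR (0.41 ± 0.07), and Tbk1 (0.31 ± 0.06). Of the receptors and signalling genes 2 of 15 rose, Socs3 (0.21 ± 0.07) and Irf2 (0.18 ± 0.07).

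In the remaining lists fewer genes were called with KCl in E0771. Among other class I genes 1 of 10 rose, H2-T22 (0.52 ± 0.09). Of the class II genes and their regulators 2 of 7 rose, Rfx5 (0.32 ± 0.12) and Ciita (2.26 ± 0.85), the latter at no more than 0.546 CPM in any E0771 library. Of the proteasome activator and constitutive subunits 2 of 5 rose and 2 fell: Psme1 rose (0.36 ± 0.06), and Psmb6 (-0.23 ± 0.05) and Psmb7 (-0.15 ± 0.05), which immunoproteasome subunits replace, fell. In AT-3, KCl was followed by 0 higher and 2 lower of 84, Cmpk2 (-0.76 ± 0.22) and Psme2 (-0.24 ± 0.06). Of all genes, 3.08% were higher and 1.75% lower there, so the count of falls is near the background. The difference between the lines in the effect of KCl was called in 16 of 87 related genes, all more positive in E0771. Of all genes, 4.11% were more positive and 5.02% more negative. The 16 were led by Ifitm3 (0.89 ± 0.09), Ifitm2 (0.59 ± 0.08) and Samd9l (1.07 ± 0.15). With NS11021 in E0771, 5 of the 73 rose and 9 fell, beside 12.8% and 13.5% of all genes, and with BMS204352 7 rose and 7 fell, beside 11.3% and 11.3%. These shares are near or below the background, and the genes that follow are single examples. Samd9l and Cmpk2 fell with both (-0.29 ± 0.06 and -1.06 ± 0.22 with NS11021, -0.32 ± 0.06 and -0.67 ± 0.21 with BMS204352), and so did Ifngr1, a chain of the interferon-gamma receptor (-0.37 ± 0.08 and -0.34 ± 0.08).

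The calls are set here beside the motif matches, as a description. With KCl in E0771, 17.8% of all genes rose and 18.6% fell. Of the 16 genes with an ISRE core 3 rose, near that share, and 0 fell. Of the 15 without one, 7 rose and 2 fell. The median log2 changes were 0.31 with a core and 0.26 without. Among those without a core, some windows were not clear of exons. All 150 bases before the start lay in annotated exons for Tap1, Tapbp, H2-D1, Psmb8, Psmb9 and a window of Irf9. The part of this in the counts was not tested, so the contrast between genes with and without a core is not to be read as an effect of the core. In AT-3, 2 of 16 with and 2 of 15 without an ISRE core fell, where 1.75% of all genes fell. The medians there were -0.53 and -0.18. Isg15, with its 3 overlapping cores, was called in both directions, while Bst2, with a similar run of capitals, stood at 122 to 126 CPM with KCl in E0771 against 124 to 134 with DMSO and was not called. Irf1, with a GAS core, rose with KCl and fell with both compounds in E0771.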

How the data were processed

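RNA was sequenced in 36 libraries of the mouse breast cancer lines E0771 and AT-3, after extraction with Qiagen RNeasy and library preparation with the NuGen Universal Plus mRNA kit per the labels' protocols. The authors deposited 1 table of whole-number read counts per gene, made with STAR and featureCounts on GRCm38 per the submitters' processing notes; the sources used here do not give their versions or the strand setting. All columns matched a sample title (0 were left over). Dropping 2 human-form IDs (6 counts) from 32287 left 32285. Library totals of 31.2 to 52.6 M set the precision, and floors (3 counts over a line's summed totals) cover counting error only. Among counts from 1 to 10, 84.5% were even, so tests were also run on halved counts.

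CPM, RPKM (by summed exon length), fold changes and tests were computed here with edgeR 4.0.16, DESeq2 1.42.0 and limma 3.58.1 in R 4.3.3. Genes passed edgeR's filterByExpr (minimum count 10, minimum total 15), were scaled by TMM factors and tested by quasi-likelihood in edgeR with robust dispersions, over the 18 libraries of a line or, between lines, all 36. P-values were adjusted by Benjamini-Hochberg over all genes tested in each of 16 comparisons, with a threshold of 0.05. Values after ± are standard errors of log2 changes or standard deviations of 3 libraries. The code was tested on simulated counts with known changes.

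The 37 genes and the lists of related genes were chosen with earlier results of these data known. Each of the 37 is accounted for by role, with every library's value for up to 4 of the largest called rises and falls in each comparison and for the class I chains and Cd274; others are given by range or count, and up to 3 genes of smallest adjusted p are named per related list. Alternatives were the Wald test of DESeq2, its size factors within edgeR, halved counts, no filter, a block for replicate number, a fit of only the groups compared, leaving out the 3 libraries that stood apart, and leaving out each library in turn. Some genes of this pathway are not reported here.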

Additional observations from a re-analysis of the deposited data

Results flagged for a closer look

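Tap1 drew attention in E0771 because the effect of BMS204352 differed with and without KCl, by 0.48 ± 0.11 on the log2 scale (adjusted p = 0.0177 by edgeR's quasi-likelihood test). The effect of KCl differed between the lines, with E0771 minus AT-3 on the log2 scale, for 9 genes. These were Xaf1 (2.04), Isg15 (1.55), Irf7 (1.37), Tapbp (0.97), Ddx58 (0.93), Stat2 (0.72), Parp9 (0.65), Ifi35 (0.52) and Ifit2 (-0.51). Isg15 was called in both lines, lower with KCl in AT-3 and higher in E0771. The effect of BMS204352 differed between the lines for Psmb9 (2.32), H2-K1 (0.49) and Bst2 (-0.46), and none of these 3 held when only the groups compared were fitted.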

How the results depend on the processing

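No called gene changed sign under the alternatives run, while some estimates that were not called crossed 0, among them Cd274 with NS11021 in AT-3 and B2m with KCl in AT-3. Of the calls among the 37 genes, 28 of 31 between the lines in DMSO, 2 of 4 for KCl in AT-3 and 8 of 14 for KCl in E0771 were kept under every one of them. For BMS204352 in AT-3, 0 of 2 were kept, and on top of KCl 0 of 1. In E0771, 3 of 9 were kept for NS11021, 5 of 9 for BMS204352 and 0 of 1 for the interaction. On top of KCl there, 3 of 4 were kept for NS11021 and 2 of 6 for BMS204352. Of the line differences, 5 of 9 were kept for KCl and 0 of 3 for BMS204352. Counts that moved by more than 1.5 times were as follows, and the cause was not tested. For KCl in AT-3 the count of 4 became 7 with only the groups compared and 9 without the 3 libraries that stood apart. For BMS204352 in AT-3 the count of 2 became 8 by DESeq2 and 0 with only the groups compared. For NS11021 on top of KCl in E0771 the count of 4 became 10 with only the groups compared. The interaction in E0771 gave 2 in place of 1 without the filter. The line difference for NS11021 gave 1 by DESeq2, 2 without the 3 libraries and 3 with only the groups compared, in place of 0, and that for BMS204352 gave 1 without the 3 libraries and 0 with only the groups compared, in place of 3.

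Leaving out 1 library gave ranges of 2 to 5 for KCl in AT-3 (lowest without DMSO replicate 2 or 3 or KCl replicate 1), 2 to 7 for BMS204352 in AT-3 (highest without BMS204352 replicate 1) and 0 to 1 for BMS204352 on top of KCl in AT-3. In E0771 it gave 5 to 7 for NS11021 (lowest without NS11021 replicate 2 or 3), 3 to 6 for BMS204352 on top of KCl (lowest without KCl+BMS204352 replicate 3) and 0 to 2 for the interaction (lowest without KCl replicate 1, highest without BMS204352 replicate 2). For the line differences it gave 5 to 9 for KCl (lowest without E0771 DMSO replicate 3 or E0771 KCl replicate 3) and 0 to 3 for BMS204352 (lowest without E0771 DMSO replicate 2 or 3).

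With the replicate number as a block, KCl in AT-3 gave 8 calls and BMS204352 in AT-3 gave 6, and each other count stayed within 1.5 times. The labels do not say what a replicate number shares, so the main runs held no block. Deviations of same-numbered libraries correlated above 0.1 in 3 of 45 pairs of groups in AT-3 and 1 of 45 in E0771. Yet outside their own group, 17 of 18 AT-3 libraries and 12 of 18 E0771 libraries correlated best with one of their own number. Over all genes, the block gave 713 higher and 411 lower for KCl in AT-3, beside 455 and 259 without it. For BMS204352 in AT-3 it gave 816 and 639, beside 484 and 295. Whether the numbers pair the libraries was not tested, and these AT-3 counts depend on the block. Genes near or under 1 CPM, among them Cd274 and Gbp3 in E0771, had wide errors.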
